A study of Homo sapiens with 8 samples.

Results

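Aminoacyl-tRNA synthetases are the enzymes that join each amino acid to its transfer RNA, the step that lets the ribosome read the genetic code. Cells keep separate nuclear-encoded sets for the cytosol and for the mitochondrion, where a small number of respiratory chain proteins are made. Most cytosolic genes carry a symbol ending in 1 and most mitochondrial genes a symbol ending in 2. Many cytosolic synthetase genes are textbook targets of ATF4, a transcription factor that is raised when amino acids run short or when the kinase mTORC1 is active. Myofibroblasts make large amounts of collagen, a protein rich in glycine and proline.

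The genes described here are 35 synthetase genes of a listed set, 19 cytosolic or shared between compartments and 16 mitochondrial, out of 60666 gene IDs in the count table. GARS1 and KARS1 serve both compartments, EPRS1 and QARS1 are cytosolic or shared, and all 4 are counted here as cytosolic. All 35 were found by their current symbol, and all 35 had a mean of at least 1 CPM (counts per library scaled to the same total) over the libraries, the level needed to enter the test. TARS3, a further threonyl enzyme, is not on the list, and its values are given with the partners of charging.

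MRC5, an established fibroblast line from human lung, was the source of the RNA, which was sequenced in 4 groups with 2 libraries in each. The groups were shMock control, shMock with TGF-β1, shMTHFD2 control and shMTHFD2 with TGF-β1. All cells carried a short hairpin, either the mock hairpin or 1 against MTHFD2, a mitochondrial enzyme of folate metabolism, and no rescue is among the libraries, so a difference between the lines and an effect of losing MTHFD2 cannot be told apart. Treated cells received 4 ng TGF-β1 (no volume is stated) for 24 h, per a text that stands on the control samples as well. Groups were taken from the titles, because the genotype field numbers the knockdowns MTHFD2 to MTHFD5 and the extraction text names A549 cells and a hairpin called shDUSP23. No label states that the libraries of a group came from separate cultures, and what p-values measure here is only the spread among these libraries, possibly a technical one.

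Library totals ran from 18162738 to 22221927 counts. MTHFD2 itself, the targeted gene, stood at 58.8 and 57.2 CPM in shMock control, 256 and 258 with TGF-β1, 14.9 and 18.7 in shMTHFD2 control, and 93.8 and 91.9 with TGF-β1. Both knockdown groups thus lay below the matching shMock group, and the shMTHFD2 libraries with TGF-β1 lay above the shMock control libraries. All 9 fibroblast markers exceeded 1 CPM in every library, with a summed level of 30580 to 54260 CPM. Summed epithelial markers reached 24.9 to 35.8 CPM (KRT8 and KRT18, with SFTPC at 0), leukocyte markers 46.8 to 106 CPM (nearly all CD68) and endothelial markers 3.27 to 14.2 CPM, with PECAM1 and CDH5 at 0. The leukocyte and endothelial sums, carried mainly by CD68 and KDR, were lower in the libraries with TGF-β1, and their part in the results was not tested. PTPRC, LST1 and TYROBP, the other leukocyte markers, stood at 0 to 0.11 CPM in every library. In bulk RNA, fewer cells of a type and less RNA per cell cannot be told apart.

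The cytosolic genes were the more abundant class. Per kilobase of exon and averaged over the 8 libraries, they ran from 6.13 CPM for FARSB to 67.2 CPM for GARS1, with a median of 23.0. The mitochondrial genes ran from 1.28 CPM per kilobase for MARS2 to 28.1 for IARS2, with a median of 4.60. GARS1, the glycyl enzyme, led the order, followed by SARS1 (seryl, 53.3), NARS1 (asparaginyl, 44.6) and QARS1 (glutaminyl, 44.1). IARS2 and RARS2, the mitochondrial isoleucyl and arginyl enzymes, lay among the cytosolic genes at 28.1 and 23.8. Exon length was taken over all annotated exons, so genes with many long isoforms, such as CARS1 and CARS2, read low on this scale.

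**Figure D1:**
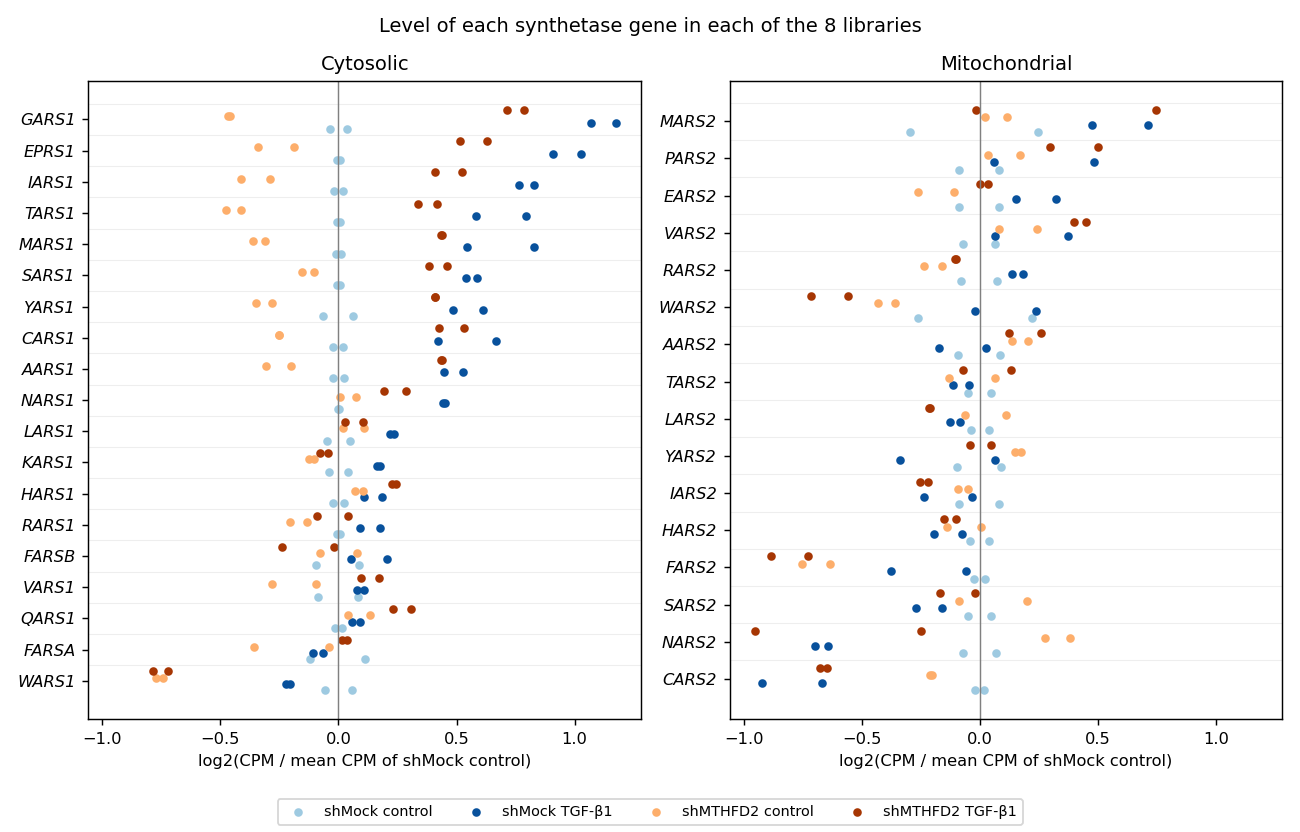
Level of each synthetase gene in each library, as log2 of its CPM over the mean CPM of the 2 shMock control libraries (x axis); each point is a library, coloured by group, with the 19 cytosolic genes at left and the 16 mitochondrial genes at right. The libraries with TGF-β1 lie to the right for the upper cytosolic genes, led by GARS1, and to the left for NARS2 and CARS2.

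The first comparison asks what TGF-β1 did to the charging enzymes in cells with intact MTHFD2. In shMock cells 11 of the 19 cytosolic genes rose with TGF-β1, against 17.6% of all 13493 tested genes, and only WARS1 fell, against 18.5%. None of the 16 mitochondrial genes rose, and 2 fell, CARS2 and NARS2. The count of 0 held in DESeq2 and limma-voom, and no mitochondrial gene was higher at an unadjusted edgeR p under 0.05. The median log2 fold change was 0.45 for the cytosolic class and −0.09 for the mitochondrial class, beside −0.02 over all tested genes. Fold changes ran with the GC content of the genes in this comparison (Spearman −0.29 across 13416 genes, which are not independent). With offsets for GC content and length the class medians, taken relative to that of all tested genes, went from 0.47 to 0.40 for the cytosolic class and from −0.07 to 0.03 for the mitochondrial class, whose sign thus depends on this choice. A gene was called changed at a Benjamini-Hochberg adjusted p under 0.05 over all tested genes in edgeR's quasi-likelihood test.

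GARS1 (ENSG00000106105, chromosome 7, 30594681 to 30634033, plus strand, GRCh38) had the largest rise among the 35 genes. Its levels were 205 and 195 CPM in shMock control and 452 and 420 CPM with TGF-β1. Both treated libraries thus lay far above both controls, a log2 fold change of 1.12 ± 0.08 (SE, n = 2 and 2, edgeR adjusted p = 4.2e-10). EPRS1 (chromosome 1, 219968601 to 220046658, minus strand), the bifunctional enzyme for glutamate and proline, came next. It went from 127 and 129 CPM to 261 and 240 CPM, a log2 fold change of 0.97 ± 0.08 (SE, edgeR adjusted p = 1.1e-08), again without overlap. GARS1 (glycine) and EPRS1 (glutamate and proline) thus showed the largest rises of the set in shMock cells. Whether the rise of EPRS1 exceeded those of other genes was not tested. PARS2, the mitochondrial prolyl enzyme, was not called, at 4.22 and 3.75 CPM in control and 4.16 and 5.57 CPM with TGF-β1. Any link to collagen synthesis was not tested.

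The multisynthetase complex of the cytosol holds several synthetases on the scaffold proteins AIMP1, AIMP2 and EEF1E1. Of its 7 enzymes on the list, 4 rose in shMock cells and 3 did not pass the test. The risers were EPRS1, IARS1, MARS1 and LARS1. IARS1, the isoleucyl enzyme, went from 209 and 203 CPM to 366 and 350 CPM, a log2 fold change of 0.80 ± 0.08 (SE, edgeR adjusted p = 9.8e-08). MARS1, the methionyl enzyme, stood at 168 and 166 CPM in control and 244 and 297 CPM with TGF-β1, a log2 fold change of 0.69 ± 0.09 (edgeR adjusted p = 2.7e-06). The exons of MARS1 overlap those of DDIT3 and ARHGAP9 on the other strand, and DDIT3 also rose (log2 fold change 0.40), so without knowledge of stranded counting reads of these genes cannot be told apart. LARS1, the leucyl enzyme, rose by only 0.23 ± 0.08 (SE, edgeR adjusted p = 0.039), and that call was lost when any 1 shMock library was left out, with library totals alone and with offsets for GC content and length. KARS1, QARS1 and RARS1, the lysyl, glutaminyl and arginyl enzymes of the same complex, had log2 fold changes of 0.17, 0.08 and 0.13 and were not called. The 3 scaffold genes were not called either, at 0.13, 0.12 and 0.06. The mRNAs of this complex thus did not all pass the test together.

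Among the 12 other cytosolic genes, 7 rose in shMock cells. TARS1 (threonyl) stood at 112 and 112 CPM in control and 194 and 168 CPM with TGF-β1. SARS1 (seryl) stood at 174 and 172 CPM and then 260 and 251 CPM. YARS1 (tyrosyl), CARS1 (cysteinyl), AARS1 (alanyl) and NARS1 (asparaginyl) rose by 0.55, 0.55, 0.49 and 0.45 on the log2 scale, with edgeR adjusted p-values from 2e-05 to 0.00011. For every one of these risers both treated libraries lay above both controls. Their selection by adjusted p on these libraries makes that likely, so it is no further evidence. HARS1, VARS1, FARSA and FARSB, the histidyl and valyl enzymes and the 2 subunits of the phenylalanyl enzyme, were not called. Together with KARS1, QARS1 and RARS1, the 7 uncalled cytosolic genes had log2 fold changes between −0.09 and 0.17 (edgeR adjusted p from 0.11 to 0.61). On library totals alone, which moved the median of all genes by −0.14, QARS1 and VARS1 turned negative but were still not called. With offsets for GC content and length both were called higher (edgeR adjusted p = 0.033 and 0.0069).

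In the mitochondrial class CARS2, the cysteinyl enzyme, fell most. CARS2 (chromosome 13, 110641412 to 110713603, minus strand) stood at 78.8 and 80.7 CPM in shMock control and 42.1 and 50.2 CPM with TGF-β1. The log2 fold change was −0.79 ± 0.09 (SE, edgeR adjusted p = 1.2e-06), and the groups did not overlap. Its exons overlap ING1 on the other strand. NARS2 (chromosome 11, 78435961 to 78574874, minus strand), the mitochondrial asparaginyl enzyme, stood at 20.9 and 19.0 CPM and then 12.3 and 12.8 CPM, a log2 fold change of −0.67 ± 0.18 (SE, edgeR adjusted p = 0.0063). Without the first shMock control library its adjusted p was 0.0529. The other 14 mitochondrial genes lay between −0.21 and 0.59, with edgeR adjusted p-values from 0.14 to 0.74, the highest value being that of MARS2, which had only 2.56 to 5.16 CPM in the shMock libraries.

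The same comparison in the shMTHFD2 line, which shares no library with the first, gave the same split between the classes. With TGF-β1, 10 of the 19 cytosolic genes rose, against 13.1% of all tested genes, and none fell. No mitochondrial gene rose, and CARS2 and NARS2 fell, against 11.3% of all tested genes called lower. The medians were 0.32 for the cytosolic and −0.09 for the mitochondrial class, beside −0.01 over all tested genes. At an unadjusted edgeR p under 0.05 there were 0 cytosolic genes lower and 1 mitochondrial gene higher, VARS2, and DESeq2 and limma-voom called 0 of either.

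GARS1 again rose most, from 145 and 145 CPM to 328 and 344 CPM, a log2 fold change of 1.21 ± 0.08 (SE, n = 2 and 2, edgeR adjusted p = 1.8e-10). EPRS1 went from 101 and 112 CPM to 183 and 198 CPM (log2 fold change 0.84 ± 0.08). IARS1 went from 155 and 169 CPM to 273 and 296 CPM (log2 fold change 0.82 ± 0.08). In all 3 genes the treated libraries of this line lay above its controls and below the treated libraries of the shMock line. TARS1, MARS1, CARS1, YARS1, AARS1 and SARS1 rose by 0.82, 0.77, 0.73, 0.72, 0.69 and 0.55 on the log2 scale. AARS1, CARS1, EPRS1, GARS1, IARS1, MARS1, SARS1, TARS1 and YARS1 were therefore the 9 genes called higher in both lines, and each was called in both lines under all 16 other settings tried.

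VARS1, the valyl enzyme, was the tenth gene called in this line, at 0.32 ± 0.09 (SE, edgeR adjusted p = 0.014). Its call was lost with library totals alone and without the second shMTHFD2 control library or the first with TGF-β1. NARS1 and LARS1, called in shMock, had log2 fold changes of 0.20 and 0.00 here (edgeR adjusted p = 0.067 and 0.98). NARS1 was called higher in this line too with DESeq2 and with offsets for GC content and length. The 9 uncalled cytosolic genes ranged from −0.13 to 0.21. CARS2 fell from 68.9 and 69.4 CPM to 49.9 and 50.9 CPM, and NARS2 from 24.2 and 26.0 CPM to 16.8 and 10.3 CPM, with log2 fold changes of −0.46 ± 0.09 and −0.89 ± 0.17 (SE, edgeR adjusted p = 0.00089 and 0.00078). The NARS2 replicates with TGF-β1 were far apart, and its log2 fold change was −1.29 without the first and −0.58 without the second.

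**Figure D2:**
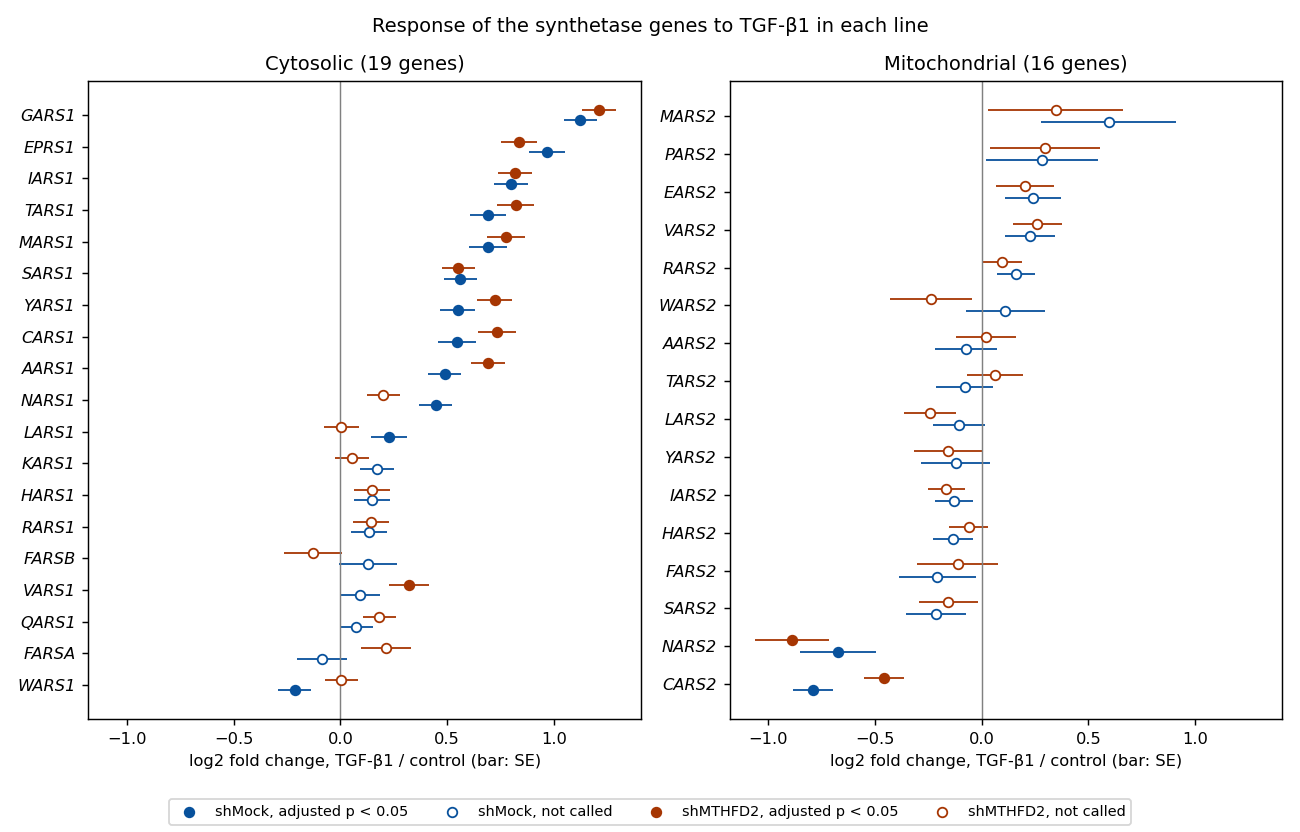
Log2 fold change with TGF-β1 (x axis, bars are SE) for each synthetase gene in shMock and in shMTHFD2 cells; filled points have an edgeR adjusted p under 0.05. GARS1 stands at 1.12 and 1.21 at the top of the cytosolic panel, and CARS2 and NARS2 are the filled points below 0 in the mitochondrial panel.

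Whether the response to TGF-β1 differed between the lines was tested directly by the interaction. None of the 35 genes was called, while 0.230% of all tested genes were. The lowest edgeR adjusted p was 0.30, for CARS2, whose response in shMTHFD2 minus that in shMock was 0.33 ± 0.13 (SE). NARS1 had the lowest cytosolic value, 0.35, with a difference of −0.25 ± 0.11 (SE). At an unadjusted p under 0.05 these were the only members, 1 in each class, in edgeR and equally in DESeq2 and limma-voom. For GARS1 the difference was 0.09 ± 0.11 (SE) and for EPRS1 −0.13 ± 0.12 (SE). With 2 libraries a group, differences larger than these SE also remain possible, so equal responses are not shown. The interaction values ran with GC content over all genes (Spearman 0.48), and the part of GC content in them was not tested beyond the offsets, with which the cytosolic median relative to all genes went from 0.06 to 0.01 and the mitochondrial from −0.03 to −0.11.

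The class contrast can be seen within each library without regard to scaling, as the ratio of the summed levels. Summed cytosolic mRNA was 2451 and 2438 CPM in shMock control, 3474 and 3404 with TGF-β1, 2055 and 2061 in shMTHFD2 control, and 2943 and 2991 with TGF-β1. The 4 groups did not overlap, and shMTHFD2 control was lowest. Summed mitochondrial mRNA was 535 and 508 CPM, 478 and 472 CPM, 493 and 504 CPM, and 468 and 452 CPM in the same order. Those sums spanned a much narrower range, and the libraries with TGF-β1 lay below all controls. CARS2 alone went from a mean of 79.73 to 46.15 CPM with TGF-β1 in shMock and from 69.13 to 50.38 CPM in shMTHFD2. The lower sums therefore do not show a fall of the whole class. The ratio of the sums was 4.69 ± 0.16 (SD, n = 2) in shMock control and 7.24 ± 0.05 with TGF-β1, and 4.13 ± 0.05 in shMTHFD2 control and 6.46 ± 0.24 with TGF-β1. Leaving out the 4 genes that serve both compartments (GARS1, KARS1) or are cytosolic or shared (EPRS1, QARS1) gave 3.51 ± 0.12, 5.15 ± 0.01, 3.04 ± 0.04 and 4.61 ± 0.16. The order of the groups was the same with and without those 4 genes. No test was made on these sums.

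**Figure D3:**
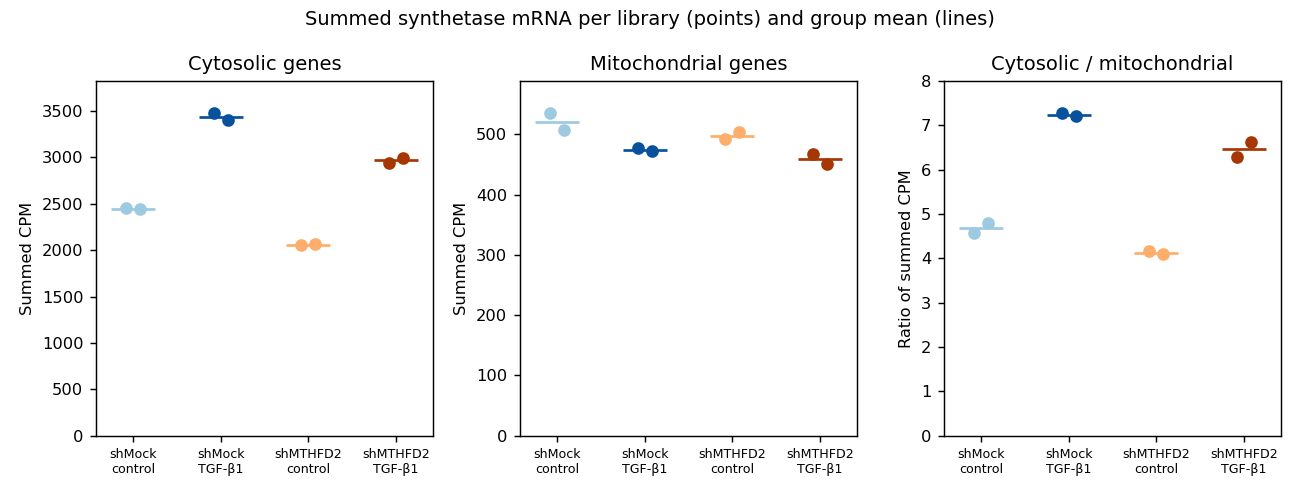
Summed CPM of the 19 cytosolic genes, of the 16 mitochondrial genes, and their ratio (y axes, from 0), with a point per library and a line at the group mean. The ratio is 4.58 and 4.80 in shMock control and 7.27 and 7.21 with TGF-β1, and 4.17 and 4.09 in shMTHFD2 control and 6.29 and 6.62 with TGF-β1.

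Set amino acid by amino acid, 17 pairs of a cytosolic and a mitochondrial gene could be formed, with EPRS1 paired to both EARS2 and PARS2, and FARS2 to both FARSA and FARSB. The log2 ratio of cytosolic to mitochondrial mRNA was higher with TGF-β1 in 14 pairs in shMock and in 16 in shMTHFD2, with median shifts of 0.56 and 0.54. In 12 pairs of the shMock line and 14 of the shMTHFD2 line both treated libraries lay above both controls. The same count was not made over other gene pairs, so these numbers are only a description. Pairs that share EPRS1 or FARS2 are not independent, and the shifts partly restate the rises of the cytosolic genes given above. The cysteine pair CARS1/CARS2 shifted most, by 1.34 in shMock and 1.19 in shMTHFD2. Its log2 ratio was 0.20 and 0.21 in shMock control and 1.54 and 1.54 with TGF-β1. The asparagine pair NARS1/NARS2 followed, at 1.12 and 1.13. The exceptions in shMock were the arginine, valine and tryptophan pairs, at −0.03, −0.13 and −0.34.

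HARS1 and HARS2, the histidyl enzymes of cytosol and mitochondrion, are neighbours on chromosome 5 that are read in opposite directions from starts 85 bases apart. Neither was called in any comparison. HARS1 stood at 69.9 and 72.1 CPM in shMock control and 80.8 and 76.5 CPM with TGF-β1, and HARS2 at 62.8 and 59.4 CPM and then 53.4 and 58.0 CPM. Their exons overlap each other, and HARS2 also overlaps ZMAT2 on its own strand, so their counts are uncertain. Of the 35 members, 16 share exon sequence with a gene on the other strand and 6 with a gene on the same strand, while 16 share none. Among the called members GARS1, CARS1, LARS1, NARS2 and WARS2 overlap non-coding or antisense transcripts, WARS1 overlaps WDR25 and YARS1 overlaps S100PBP, each on the other strand. How reads of such stretches were assigned is not known, so these counts are uncertain too.

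Promoter letters were read as a description. As background, ATF4 pairs with C/EBP proteins on a composite element (CARE), and whether it acts on these genes here was not tested. RefSeq promoter windows (GRCh38.p14, from 250 bases before to 50 after a start) were found for 30 of the 35 members. There was none for LARS1, VARS1, YARS1, AARS2 and VARS2. Each window was searched on both strands for the letters TGATGNAA (TTNCATCA on the other strand), which 3.62% of all 35116 windows and 4.46% of all 27305 genes with a window hold. They stood in 7 of the 9 cytosolic genes with a window that rose in shMock cells, in 0 of the 7 other cytosolic genes and in 1 of the 14 mitochondrial genes, YARS2. The 7 were AARS1, CARS1, GARS1, IARS1, MARS1, NARS1 and TARS1, whereas EPRS1 and SARS1 held no match in this window. A match describes letters only and shows no binding. The stretches of 30 bases around the matches are given below on each gene's own strand with the matching letters in capitals, beside the one in ASNS, the asparagine synthetase gene known for its ATF4 site.
GARS1 (chr7:30594834-30594863, plus strand): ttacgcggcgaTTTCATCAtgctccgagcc
IARS1 (chr9:92293692-92293721, minus strand): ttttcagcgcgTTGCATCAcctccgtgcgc
TARS1 (chr5:33440956-33440985, plus strand): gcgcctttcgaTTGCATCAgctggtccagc
MARS1 (chr12:57488053-57488082, plus strand): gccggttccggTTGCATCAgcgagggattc
CARS1 (chr11:3057407-3057436, minus strand): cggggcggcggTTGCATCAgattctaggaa
AARS1 (chr16:70289675-70289704, minus strand): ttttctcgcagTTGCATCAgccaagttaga
NARS1 (chr18:57621804-57621833, minus strand): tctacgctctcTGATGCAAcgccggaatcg
YARS2 (chr12:32756076-32756105, minus strand): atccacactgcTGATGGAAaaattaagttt
ASNS (chr7:97872458-97872487, minus strand): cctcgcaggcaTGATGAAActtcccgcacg

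In 5 of the 7 risen genes the 8 matching letters were the same, TTGCATCA, and NARS1 held their reverse complement, TGATGCAA. GARS1 alone differed, with TTTCATCA, the reverse complement of the TGATGAAA in ASNS. The match began 33 bases before the start in GARS1, 13 before it in IARS1, 4 and 2 before it in MARS1 and CARS1, and 187 before it in AARS1. In TARS1 and NARS1 it began at bases 3 and 15 after the start. The match of YARS2 lay farther away, 197 bases before its start.

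The next comparison asks how the synthetases differed between the lines without TGF-β1. In shMTHFD2 control cells 8 of the 19 cytosolic genes were lower than in shMock control cells, against 8.73% of all tested genes, and none was higher, against 3.49%. In the mitochondrial class FARS2 alone was lower and none was higher. No member was higher at an unadjusted edgeR p under 0.05, nor by DESeq2 or limma-voom. The medians were −0.19 and 0.00, beside −0.01 over all tested genes. This contrast shares the shMock control libraries with the TGF-β1 contrast in shMock and the shMTHFD2 control libraries with that in shMTHFD2, so their values are not independent of each other.

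WARS1 (chromosome 14, 100333788 to 100376805, minus strand), the tryptophanyl enzyme and the one synthetase widely known to be raised by interferon-γ, differed most. It stood at 306 and 283 CPM in shMock control and 172 and 176 CPM in shMTHFD2 control. The groups were far apart, a log2 fold change of −0.76 ± 0.08 (SE, n = 2 and 2, edgeR adjusted p = 1.5e-06). GARS1 was lower at 145 and 145 CPM against 205 and 195 CPM (log2 fold change −0.46 ± 0.08, edgeR adjusted p = 0.00044). TARS1 was lower at 84.1 and 80.4 CPM against 112 and 112 CPM (log2 fold change −0.44 ± 0.09, edgeR adjusted p = 0.0016). IARS1, MARS1, YARS1, EPRS1 and AARS1 were lower by smaller amounts, with log2 fold changes of −0.35, −0.34, −0.31, −0.26 and −0.25 (edgeR adjusted p from 0.0061 to 0.047). GARS1, TARS1 and WARS1 were called under all 16 other settings, and the other 5 were not. In the 8 settings that kept all libraries, IARS1, MARS1, YARS1, EPRS1 and AARS1 were called in 8, 7, 7, 4 and 6. EPRS1 lost its call with median-of-ratios factors, library totals alone, the replicate block and no robust shrinkage. AARS1 lost its call with library totals alone and with no filter on low counts. The count of 8 became 4, 3, 5 and 4 without the first and second shMock control and the first and second shMTHFD2 control library, and 4 with library totals alone.

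FARS2, the mitochondrial phenylalanyl enzyme, stood at 11.9 and 11.5 CPM in shMock control and 6.95 and 7.54 CPM in shMTHFD2 control, a log2 fold change of −0.69 ± 0.18 (SE, edgeR adjusted p = 0.017). The call was lost without any 1 of these 4 libraries. CARS2 and NARS2 were not called between the lines, with log2 fold changes of −0.21 and 0.33. The 11 uncalled cytosolic genes lay between −0.25 and 0.09, and the 15 uncalled mitochondrial genes between −0.40 and 0.33.

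With TGF-β1 in both lines, 5 of the 19 cytosolic genes were lower in shMTHFD2, against 8.65% of all tested genes, and none was higher, against 5.27%. Of the mitochondrial genes WARS2 and FARS2 were lower and none was higher. At an unadjusted edgeR p under 0.05 the 1 member that was higher was QARS1, and DESeq2 and limma-voom called 0 higher. The medians were −0.16 and 0.06, beside 0.01 over all tested genes. Fold changes ran with GC content here too (Spearman 0.34). With offsets for GC content and length the class medians relative to all tested genes went from −0.17 to −0.14 and from 0.05 to 0.01. MARS1, not called here, was called lower with DESeq2, median-of-ratios factors, no filter on low counts and these offsets. WARS1 stood at 255 and 252 CPM in shMock and 171 and 178 CPM in shMTHFD2, a log2 fold change of −0.54 ± 0.08 (SE, n = 2 and 2, edgeR adjusted p = 8.6e-05). Its shMTHFD2 levels were thus close to those without TGF-β1. EPRS1, GARS1, IARS1 and TARS1 were lower by −0.39, −0.38, −0.33 and −0.32 on the log2 scale (edgeR adjusted p = 0.0029, 0.0025, 0.0078 and 0.016). In each of the 4 the groups did not overlap, which is likely for genes picked by adjusted p on these libraries. EPRS1, GARS1 and WARS1 were called under all 16 other settings. IARS1 was not called without the first shMock or the first shMTHFD2 library with TGF-β1, and TARS1 not without the first shMock or the second shMTHFD2 library with TGF-β1, nor with library totals alone.

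WARS2, the mitochondrial tryptophanyl enzyme, stood at 14.1 and 11.8 CPM in shMock with TGF-β1 and 8.12 and 7.27 CPM in the treated shMTHFD2 cells, a change of −0.75 ± 0.19 (SE, edgeR adjusted p = 0.011) on the log2 scale. FARS2 stood at 11.2 and 9.01 CPM and 6.33 and 7.07 CPM (log2 fold change −0.60 ± 0.19, SE, edgeR adjusted p = 0.039). Both rest on few counts per library. WARS2 was not called without the first shMock or the second shMTHFD2 library with TGF-β1. FARS2 was not called without the first shMock control, the first shMock with TGF-β1 or either shMTHFD2 library with TGF-β1, nor with library totals alone, limma-voom or DESeq2. QARS1, at 200 and 205 CPM against 238 and 226 CPM, had the highest cytosolic value, 0.20 (edgeR adjusted p = 0.10), and was called higher with library totals alone.

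**Figure D4:**
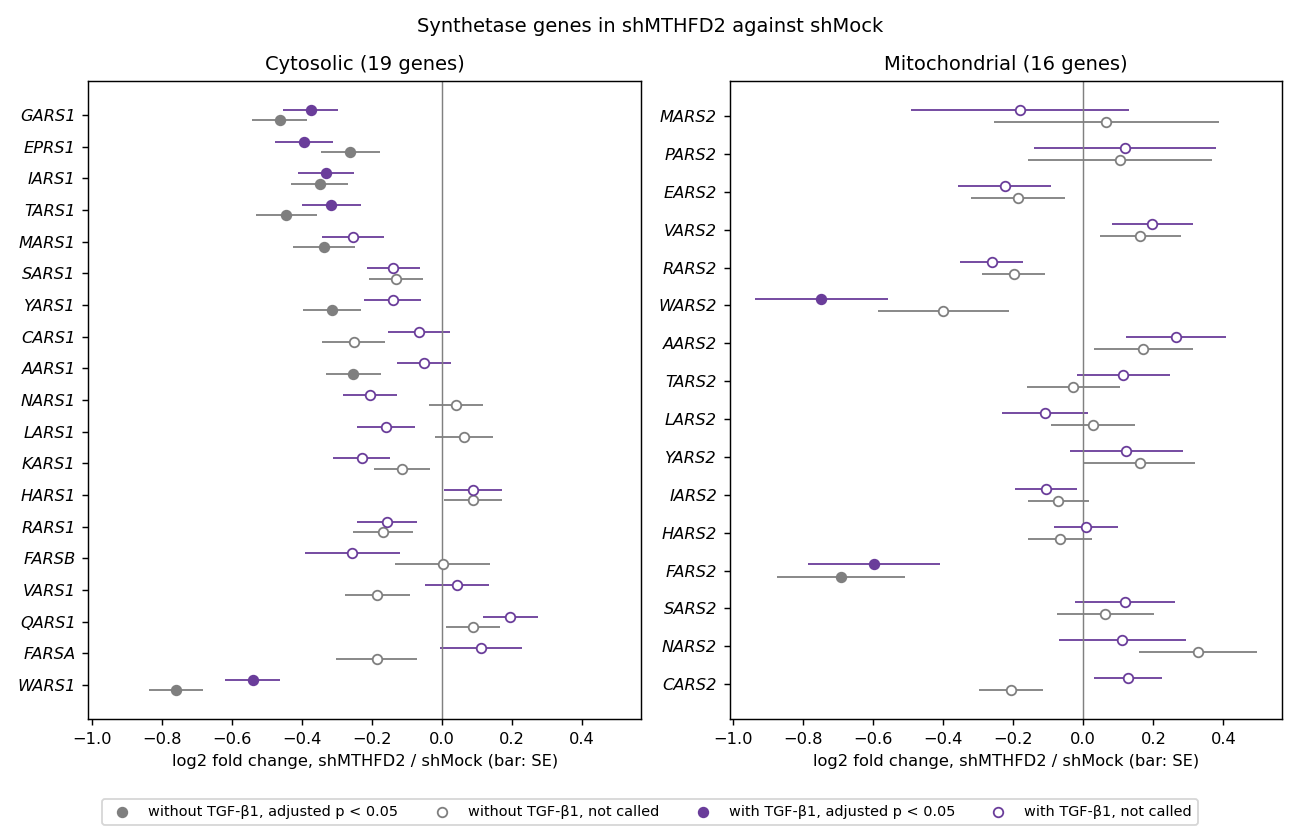
Log2 fold change of shMTHFD2 over shMock (x axis, bars are SE) for each synthetase gene without and with TGF-β1; filled points have an edgeR adjusted p under 0.05. WARS1, at −0.76 and −0.54, lies farthest left among the cytosolic genes, and all filled points lie below 0.

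**Figure D5:**
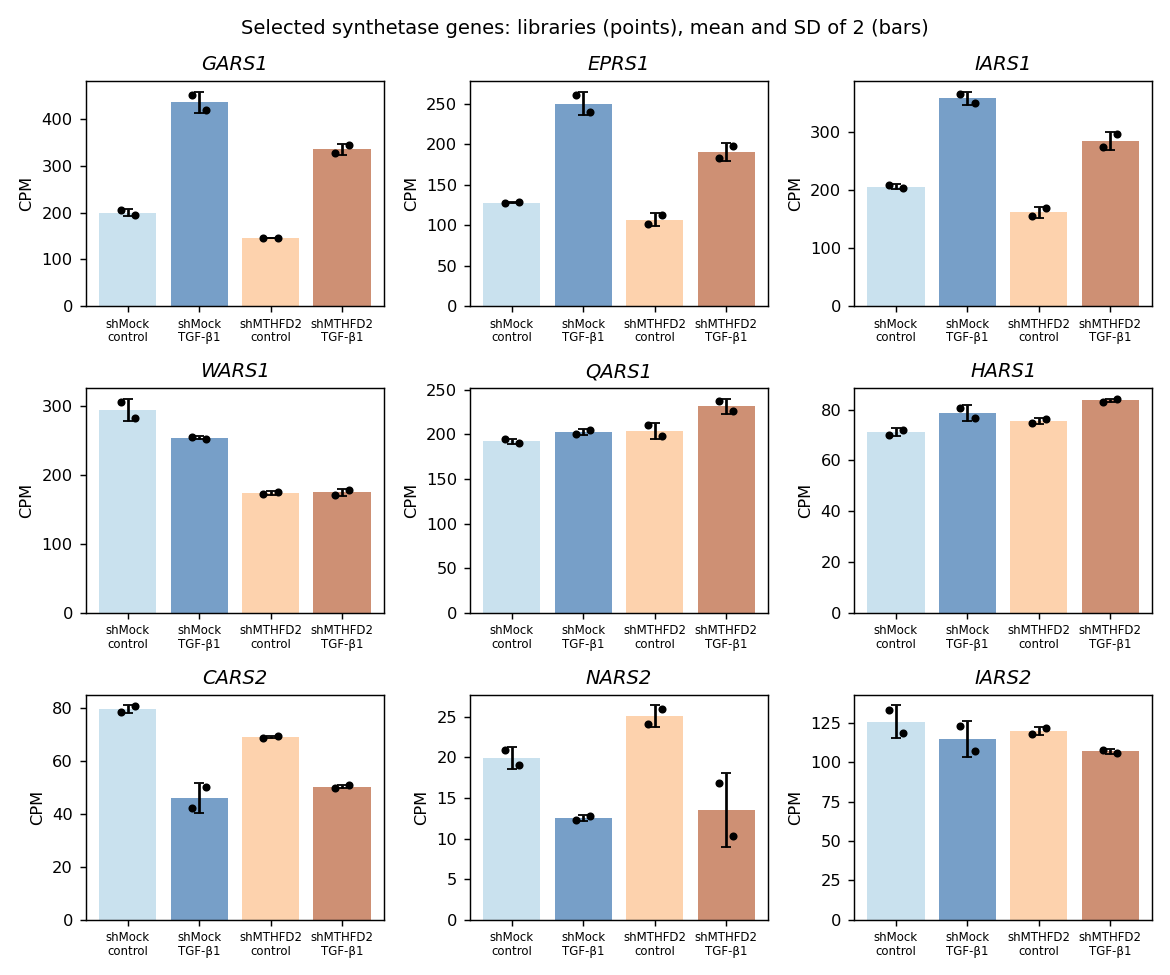
CPM of 9 synthetase genes (y axes, from 0) in the 4 groups; points are libraries, bars the mean and error bars the SD of 2. GARS1, EPRS1 and IARS1 are higher with TGF-β1 and lower in shMTHFD2, the EPRS1 call without TGF-β1 depending on the setting. WARS1 is lower in shMTHFD2 with and without TGF-β1, and CARS2 and NARS2 are lower with TGF-β1.

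WARS1 was set beside 10 interferon-inducible genes, since it is itself known to be inducible by interferon. This list was chosen with results of these libraries known, and a part of interferon in the WARS1 values was not tested. Of these 10, 10 were lower in shMTHFD2 control (median log2 fold change −1.18), against 8.73% of all tested genes. With TGF-β1, 9 were lower in shMTHFD2 (median −1.02), against 8.65%, ISG15 being the exception. GBP1, a guanylate-binding protein, was lower by −1.25 and −1.15, and IFIT1, an antiviral RNA-binding protein, by −1.01 and −1.07 on the log2 scale. With TGF-β1 in shMock cells 5 of the 10 fell, against 18.5% of all tested genes, among them IFIT1 at −0.39 and IFIT3 at −0.33. GBP1 rose there by 0.86. WARS1 itself fell by 0.21 there (edgeR adjusted p = 0.035), a call lost with median-of-ratios factors, with no filter on low counts, and when any 1 library other than the second shMTHFD2 library with TGF-β1 was left out. In shMTHFD2 cells IFIT1 fell by 0.45, GBP1 and IRF1 rose by 0.96 and 0.52, and WARS1 was at 0.01 (edgeR adjusted p = 0.97). The WARS1 window holds the core of the interferon-stimulated response element, searched as TTTC, any 2 bases and TTTC again, or GAAA, any 2 bases and GAAA on the other strand. Of all windows, 3.57% hold it. EARS2 was the other member with this match. The WARS1 window also holds TTCNNNGAA, the letters of the gamma-activated site, found in 7.66% of all windows and in CARS1, TARS1, PARS2 and WARS2 among the members. Both WARS1 stretches are printed on the gene's strand, with the matching letters in capitals, as the members' only window with both motifs.
WARS1, interferon-stimulated element (chr14:100375383-100375412, minus strand): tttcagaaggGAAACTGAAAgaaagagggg
WARS1, gamma-activated site (chr14:100375470-100375499, minus strand): gctcaagtgtTTCTGAGAAtctgggtgatt

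ATF4 and other genes of the amino acid response, a list of 32 genes that includes MTHFD2, were read in the same comparisons. Without MTHFD2, 23 of 31 rose and 4 fell with TGF-β1 in shMock, against 17.6% and 18.5% of all tested genes. In shMTHFD2, 22 rose and 2 fell, against 13.1% and 11.3%. ATF4 mRNA stood at 526 and 530 CPM in shMock control, 814 and 779 CPM with TGF-β1, 441 and 423 CPM in shMTHFD2 control and 711 and 683 CPM with TGF-β1. It rose by 0.59 and 0.69 on the log2 scale with TGF-β1. In shMTHFD2 it was lower without TGF-β1 (−0.29, edgeR adjusted p = 0.016), and with TGF-β1 the value was −0.19 (edgeR adjusted p = 0.10). ASNS, which makes asparagine, rose by 2.36 and 2.40, and ALDH1L2, a mitochondrial folate enzyme, by 1.79 and 1.88. PSAT1, of serine synthesis, rose by 2.02 in shMTHFD2. Of the 5 amino acid carrier genes on the list, 2 rose, 2 fell and 1 was not called in each line. SLC7A1, a carrier of cationic amino acids, rose by 1.85 and 2.03, and SLC7A5, a carrier of large neutral ones, by 1.37 and 1.66. SLC7A11, the cystine carrier, fell by 0.96 and 1.21 and SLC1A5, a neutral amino acid carrier, fell by 0.33 and 0.39. SLC3A2, the partner chain of SLC7A5 and SLC7A11, was at −0.07 and 0.02. The carriers were singled out after their values were seen. ATF5, a related transcription factor, fell in shMock by 0.66.

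Between the lines, 18 of the 31 were lower and 1 higher in shMTHFD2 without TGF-β1, against 8.73% and 3.49% of all tested genes. With TGF-β1, 13 were lower, against 8.65%. ATF3, a stress-induced transcription factor, was lower at −1.04 and −0.84, PSAT1 at −0.76 without TGF-β1, and ASNS at −0.70 with it. SLC7A11 was the one higher gene, at 0.40. The list medians with MTHFD2 included were 0.76 and 0.88 for TGF-β1 in shMock and shMTHFD2, and −0.45 and −0.29 for the lines without and with TGF-β1. These lists were chosen with results of these libraries known, so their direction is no independent evidence about the synthetases.

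Of the partners of charging, 17 genes with the synthetases outside the listed set, 3 rose, 4 fell and 10 were not called with TGF-β1 in shMock, shares close to the 17.6% and 18.5% of all tested genes. In shMTHFD2, 2 rose, 2 fell and 13 were not called, beside 13.1% and 11.3% of all tested genes that rose and fell. With TGF-β1 in shMock, XPOT, which exports transfer RNA from the nucleus, TARS3, a second threonyl enzyme, and TRNT1, which adds the terminal CCA to transfer RNA, rose, and DTD1 and AARSD1 were among those that fell. XPOT stood at 157 and 147 CPM in shMock control and 297 and 295 CPM with TGF-β1, and at 119 and 140 CPM and then 238 and 251 CPM in shMTHFD2. These are rises of 0.96 and 0.92 on the log2 scale (edgeR adjusted p = 1.9e-08 and 5.1e-08). TARS3 rose by 0.44 and 0.34. QRSL1, a subunit of the mitochondrial amidotransferase that completes glutaminyl-tRNA, fell in shMTHFD2 by 0.43. DTD1 and AARSD1, which remove wrongly attached amino acids, fell in shMock by 0.37 and 0.40. Between the lines XPOT alone was called, lower with TGF-β1 at −0.28 (edgeR adjusted p = 0.034). Without TGF-β1 edgeR, DESeq2 and limma-voom called 0 of the 17, with GATB and SEPSECS higher and XPOT lower at an unadjusted edgeR p under 0.05.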

How the data were processed

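The deposited values are whole-number counts, despite a name that speaks of FPKM, in 8 libraries and 60666 Ensembl gene IDs. How the authors counted, on which annotation and with or without strand, is not given in the sources used here. Per the submitters' processing notes, STAR 2.7.1a, DESeq2 1.32.0 and the build GRCh38 were used. Symbols came from the supplied name table, positions and overlaps from GENCODE 29. Genes averaging at least 1 CPM over the libraries were kept, 13493 in all, with 99.8 to 99.9% of the counts. In R 4.3.3, edgeR 4.0.16 (TMM factors from 0.914 to 1.07, robust quasi-likelihood) fitted all 8 libraries in 1 model with a mean per group and 4 residual degrees of freedom, giving 5 comparisons. The coefficient of biological variation was 8.79%. Approximate SE were obtained by dividing each log2 fold change by the root of its F statistic. CPM were computed on TMM-scaled totals. The edgeR fit was also run on simulated counts, for shMTHFD2 against shMock with TGF-β1 only. Those counts had the same spread for all genes and no GC trend, so they cannot show how the fit does on these libraries. limma 3.58.1 and DESeq2 1.42.0 served as alternatives. Of each other gene list, MTHFD2 and ATF4 are given, and per comparison up to 2 higher and 2 lower called genes by adjusted p (where none was called, the most abundant), and small counts are named in full, chosen after their values were seen. Values of some genes on these lists are not reported here. The members and lists were chosen with earlier results of these data known.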

Additional observations from a re-analysis of the deposited data

How the results depend on the processing

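With 2 libraries a group, a lone library is assumed to vary like the other groups when its partner is left out. Of the 42 calls made over the members and comparisons, 28 held under all 16 alternatives, 1 of which (quasi-likelihood without robust shrinkage) was chosen after seeing the data. The cause of the other changes was not tested. The labels do not say what a replicate number marks, and same-numbered libraries deviated with correlations of −0.020 to 0.069. With the replicate block, 7 in place of 8 cytosolic genes were lower in shMTHFD2 control, and the other member counts were the same. Offsets for GC content and length made 1 mitochondrial gene higher with TGF-β1 in shMock (VARS2), and IARS2 was also called lower there. In the cytosolic class these offsets called QARS1 and VARS1 higher in that comparison, and LARS1 was no longer called.

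Library totals alone reversed 2 uncalled values of TGF-β1 in shMock, QARS1 to −0.061 and VARS1 to −0.045. With them, members called were 4 cytosolic lower in shMTHFD2 control, 1 cytosolic higher and 1 mitochondrial lower in shMTHFD2 with TGF-β1, and 4 mitochondrial lower with TGF-β1 in either line. All genes called were then 811 higher (main 471) in shMTHFD2 control, 1483 higher and 761 lower (main 711 and 1167) in shMTHFD2 with TGF-β1, 3993 (2491) lower with TGF-β1 in shMock and 2528 (1527) in shMTHFD2, and 10 lower (20) in the interaction. limma-voom and DESeq2 each called 1 mitochondrial gene lower in shMTHFD2 with TGF-β1. Median-of-ratios factors and no filter on low counts each called 0 cytosolic genes lower with TGF-β1 in shMock. Interaction counts over all genes (main 11 higher, 20 lower) were 165 and 131 with no filter, 5 and 7 without robust shrinkage, 6 and 9 with limma-voom, 55 and 50 with DESeq2, and 22 higher with the GC and length offsets.

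Leaving out 1 library at a time gave these ranges. In shMTHFD2 control, 121 to 583 genes were higher and 579 to 1266 lower, with 3 to 9 cytosolic and 0 to 1 mitochondrial members lower. In shMTHFD2 with TGF-β1, 308 to 692 were higher and 654 to 1303 lower, with 0 to 3 mitochondrial members lower. With TGF-β1 in shMock, 1626 to 2552 genes were lower, with 0 to 1 cytosolic and 1 to 2 mitochondrial members lower and 0 to 1 mitochondrial members higher. With TGF-β1 in shMTHFD2, 1123 to 1609 genes and 2 mitochondrial members were lower. The interaction gave 2 to 171 genes higher and 1 to 135 lower.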

Other observations

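Translation factors of the 2 compartments were read in the same comparisons as the synthetases. Of 20 cytosolic factors, 7 rose and 1 fell with TGF-β1 in shMock cells, against 17.6% and 18.5% of all tested genes. In shMTHFD2, 4 rose, against 13.1%. In that line edgeR called 0 lower, with EEF1A1 lower at an unadjusted p under 0.05, whereas DESeq2 and limma-voom each called 1 lower. EIF4EBP1, which binds and holds back the cap-binding factor eIF4E, rose by 1.38 and 1.51 on the log2 scale (edgeR adjusted p = 2e-09 and 1.4e-09), and EIF2S2, a subunit of the initiation factor eIF2, rose by 0.49 and 0.39. EEF1D, an elongation factor subunit, fell by 0.30 in shMock (edgeR adjusted p = 0.014). In shMTHFD2 without TGF-β1 the 2 factors called were lower, EIF4EBP1 at −0.75 and EIF5A at −0.29, against 8.73% of all tested genes. With TGF-β1, 4 were lower, against 8.65%, among them EIF4EBP1 at −0.62 and EIF2S2 at −0.30.

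Of 14 mitochondrial translation factors, MTG2, a GTPase of the mitochondrial ribosome, was the one called with TGF-β1 in shMock, where it fell by 0.36 (edgeR adjusted p = 0.046). In shMTHFD2 edgeR, DESeq2 and limma-voom called 0 with TGF-β1, and 1, MTRF1L, was higher at an unadjusted edgeR p under 0.05. LRPPRC, an RNA-binding protein that stabilises mitochondrial mRNA, was higher in shMTHFD2 control by 0.27 (edgeR adjusted p = 0.039). With TGF-β1 none of the 14 differed between the lines by these tools, with 1, GFM2, lower at an unadjusted edgeR p under 0.05.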
